A study of Homo sapiens with 12 samples.

Results

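The genes described here are 36 genes of fatty acid oxidation, measured by RNAseq in 2 established bladder carcinoma cell lines, CAL-29 and 5637, with and without knockdown of KMT9α. They were taken by symbol from the 23064 symbols of the count tables, and all 36 were found. The list was selected on these data, with it known that ACADM, encoding the medium-chain acyl-CoA dehydrogenase, fell in 5637 cells only. The responses of the 36 genes to the knockdown, and the difference in response between the lines, are therefore a description and carry no test. CAL-29 and 5637 cells, labelled as wild-type bladder cells, received either a control siRNA (siCtrl) or an siRNA against KMT9α (siKMT9α) and were harvested at day 3, with 3 libraries in each of the 4 groups. A single siRNA was used, and nothing in the labels says that the 3 libraries of a group came from separate cultures, so the errors given cover only the spread between these libraries.

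Beta-oxidation shortens fatty acids by repeated cycles of dehydrogenation, hydration, a further dehydrogenation and thiolysis, each releasing acetyl-CoA. Acyl-CoA synthetases first activate the fatty acid, and the carnitine shuttle, gated by carnitine palmitoyltransferase 1 at the outer mitochondrial membrane, carries it into the mitochondrion. Electrons from the acyl-CoA dehydrogenases reach the respiratory chain through the electron transfer flavoprotein. Peroxisomes run a parallel pathway for very-long-chain and branched acids, whose first step is an acyl-CoA oxidase, and the nuclear receptor PPARα is a known activator of many of these genes.

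Total counts were between 24479348.5 and 35151256.5 per library, and replicates varied by 5.08% in CAL-29 and 3.34% in 5637 cells (biological coefficient of variation). N6AMT1, the gene of KMT9α, was lower in every siKMT9α library than in any siCtrl library, with a log2 fold change of -2.00 ± 0.15 (standard error) in CAL-29 and -2.22 ± 0.12 in 5637 cells. The first siCtrl library of CAL-29 cells stood somewhat apart from the other two of its group. The chi-square of its counts against theirs, per degree of freedom, was 8.19 and 12.3, where the remaining pair had 3.32 and pairs within the other groups at most 3.999. The 9 epithelial and urothelial marker genes examined were all present, at no less than 18.3 CPM (counts per 1000000 counts). Their summed level was lower after the knockdown, at 12886 to 13579 CPM against 6591 to 6721 CPM in CAL-29 and 9027 to 9336 CPM against 5988 to 6146 CPM in 5637 cells. Not every marker followed the sum. KRT7 rose in CAL-29 cells, from 68.7 to 78.9 CPM up to 94.0 to 100.2 CPM, where GATA3 overlapped between the groups. TP63 rose in 5637 cells, from 125 to 128 CPM up to 156 to 159 CPM. Of 13 markers of lymphoid, myeloid, endothelial, mesenchymal, muscle, liver and fat cells, 10 stayed at or below 1.76 CPM in every library. The exceptions were CD68, CD14 and CDH5. CD68 went from 4.37 to 5.70 CPM with siCtrl to 10.05 to 12.2 CPM with siKMT9α in CAL-29, and from 2.55 to 3.03 CPM to 4.19 to 4.26 CPM in 5637 cells. CDH5 went from 0.513 to 0.89 CPM up to 3.63 to 4.21 CPM in CAL-29, and from 1.07 to 1.44 CPM down to 0.0181 to 0.0962 CPM in 5637 cells. The 13 summed to between 8.74 and 10.5 CPM against 18.4 to 20.3 CPM in CAL-29, and to between 6.25 and 7.58 CPM against 6.496 to 7.26 CPM in 5637 cells, with CD3E, DES and ADIPOQ among those at 0 throughout at least 1 group. The part of these markers in the values below was not tested. The CPM values from here on are scaled with TMM and are shares of a library, so that fewer transcripts per cell and a larger share taken by other genes cannot be told apart.

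In CAL-29 cells the 36 genes went both ways after the knockdown, whereas in 5637 cells most of those that passed the threshold were lower. With edgeR's quasi-likelihood test at an unadjusted p below 1e-06, 6 of the 36 genes were upregulated in CAL-29 cells (CROT, HADHB, ECI1, HSD17B4, ACSL3 and ACSL5) and 3 were downregulated (ACAD10, ACAA2 and ACOX3). Over all 14682 genes tested in that line, 14.9% passed upwards and 15.0% downwards. In 5637 cells 35 genes were tested, since ACADL had too few counts. There, 5 were upregulated (ECI1, ETFA, ACSL3, ACSL4 and ACSL5) and 12 downregulated (ACADM, CPT1A, CPT1C, CPT2, HADH, ACAA2, ECI2, DECR1, ETFB, ETFDH, EHHADH and PPARA), where 17.9% and 17.5% of all 14367 genes tested passed in each direction. Scaled by total counts or by the upper quartile, the split in 5637 cells was 3 up and 14 down. Without the third siKMT9α library of 5637 cells, 11 genes passed, 2 up and 9 down. In CAL-29 cells 7 passed upwards and 4 downwards without the first siCtrl library. Of the genes that passed, CROT in CAL-29 cells and ACSL4, EHHADH and ETFDH in 5637 cells lay closest to the limit. The median log2 fold change of the genes was 0.13 in CAL-29 and -0.23 in 5637 cells, against -0.02 and -0.01 over all genes tested. No member changed by 2-fold or more in 5637 cells, and 3 did so and passed the threshold in CAL-29 cells (ECI1, ACAA2 and ACOX3).

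The siKMT9α libraries lay wholly above the siCtrl libraries for 15 genes of CAL-29 cells and wholly below for 12, where the shares over all genes tested were 35.6% and 36.7%. In 5637 cells the corresponding numbers were 7 and 22 of the 35 genes tested, with 35.8% and 36.5% over all genes. Past 1e-06 in both lines were 4 genes, ECI1, ACSL3 and ACSL5 upwards and ACAA2 downwards, and none passed it in opposite directions. The share of all genes that passed in both lines is not given here, so these counts have no background beside them. Of the 35 genes tested in both lines, 10 had a positive fold change in both, 12 a negative one in both, 12 were positive in CAL-29 and negative in 5637 cells, and SLC25A20 alone was negative in CAL-29 and positive in 5637 cells.

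**Figure D1:**
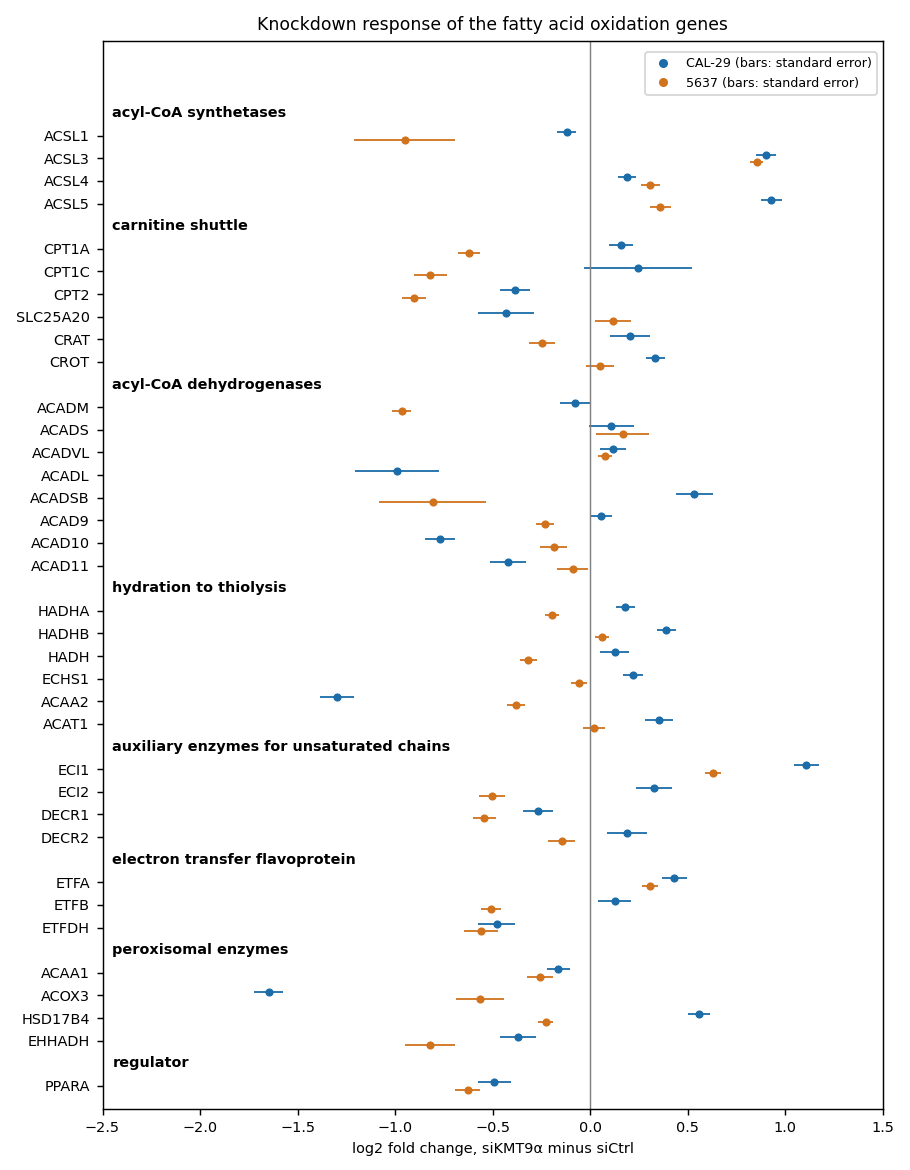
Log2 fold change (siKMT9α minus siCtrl, x axis) of the 36 genes grouped by role, in CAL-29 cells (blue) and 5637 cells (orange), with bars for the standard error (3 libraries per group). ACSL3 and ECI1 lie far to the right in both lines, ACOX3 and ACAA2 far to the left in CAL-29 cells, and ACADM at -0.97 in 5637 cells and -0.08 in CAL-29 cells.

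ACADM (chr1:76190116-76253260 of GRCh37, the assembly that hg19 denotes, plus strand) catalyses the first dehydrogenation of medium-chain acyl-CoA. In 5637 cells it stood at 58.1, 59.1 and 57.4 CPM with siCtrl and at 29.4, 28.8 and 30.9 CPM with siKMT9α, with no overlap between the groups. The fitted level with siKMT9α was 51.1% of that with siCtrl, and the log2 fold change was -0.97 ± 0.05 (standard error). In CAL-29 cells the levels were 25.2, 28.02 and 31.5 CPM with siCtrl against 26.2, 26.6 and 27.6 CPM with siKMT9α, and the groups overlapped, with a log2 fold change of -0.08 ± 0.08. Without single libraries this value lay between -0.15 and 0.02. The difference in response, CAL-29 minus 5637, was 0.91 ± 0.09 on the log2 scale. The control level was itself higher in 5637 cells, by a log2 difference of 1.11 (standard error 0.06) in a model of all 12 libraries. The siKMT9α libraries of 5637 cells, at 28.8 to 30.9 CPM, lay within the range of the CAL-29 siCtrl libraries. They lay above the CAL-29 siKMT9α libraries, at 26.2 to 27.6 CPM. These CPM were scaled in each line separately, and the levels were not tested against each other.

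The annotated 3′ untranslated regions (3′ UTRs) of several of these genes hold the heptamer ACATTCA, which pairs with positions 2 to 8 of the guide strand of one of the siRNAs against KMT9α in the study's methods, siKMT9α#1. The tables name the siRNA si270, and the study's results name siKMT9α#1. The other siRNA that the methods list targets a sequence beginning a base earlier. Positions 2 to 8 of its guide pair with CACATTC, which the windows of ACADSB, ACOX3, ETFDH and PPARA below hold as well. The counts of matches, and the other windows shown, rest on si270 being siKMT9α#1. Matches of this kind are where an siRNA can bind transcripts other than its target. Of the 35 members with a 3′ UTR of at least 50 bases, 9 (25.7%) held it in the longest annotated 3′ UTR, against 15.2% of 13700 genes tested. In the shortest annotated 3′ UTR, 3 members held it (8.57%, against 5.91%). The 3′ UTRs with the heptamer were longer, with a median of 1739 bases against 623.5 bases in the members without it. Over the 13700 genes the medians were 3417 bases with it and 1267 bases without it, so a match goes along with length there too. The windows of 30 bases around the heptamer, which is in capitals, are shown for 8 of the 9 genes that hold it, because the results for ACADM, ACAA2 and ACOX3 fall among them. They are read from the GENCODE transcripts of GRCh37, 5′ to 3′ on the transcript's strand, and the window of DECR1, the ninth gene, is not shown here.
ACADM (chr1:76228942-76228971, + strand): tcaaaattttgACATTCAtattctcctatt
ACADSB (chr10:124816308-124816337, + strand): ttttgttttgcACATTCAtgtttattgaag
ACAA2 (chr18:47309740-47309769, - strand): tggtattaagtACATTCAcatttttataca
ACOX3 (chr4:8368657-8368686, - strand): gggactggcacACATTCAgccaagtctaat
ACOX3 (chr4:8368386-8368415, - strand): tagaatttcgcACATTCAgttttcagggtt
ETFA (chr15:76508135-76508164, - strand): tgttattataaACATTCAaaatcctgtgca
ETFDH (chr4:159631370-159631399, + strand): aggttatagccACATTCAacttgaatggtc
PPARA (chr22:46636426-46636455, + strand): gaccttctttcACATTCAgaaaagtagtat
EHHADH (chr3:184909651-184909680, - strand): agctaagtcatACATTCAttttgactcctt

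Of these 9 genes, 7 had a negative log2 fold change in CAL-29 cells (median -0.37) and 8 in 5637 cells (median -0.56). ETFA was the exception in both lines and ACADSB in CAL-29 cells. ACOX3, with 2 matches, had the largest decrease of all members in CAL-29 cells. Among the 26 members without a match, 7 were negative in CAL-29 cells (median 0.18) and 15 of the 25 tested were negative in 5637 cells (median -0.15). Over all genes tested that have such a 3′ UTR, 1312 of 1993 with a match were negative in CAL-29 and 1396 of 2000 in 5637 cells. Without a match, 5292 of 11178 and 5164 of 10941 were negative. The median over these genes was -0.26 with a match and 0.04 without for CAL-29, -0.31 and 0.03 for 5637. A match is a stretch of letters, and its part in the fold changes was not tested.

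**Figure D2:**
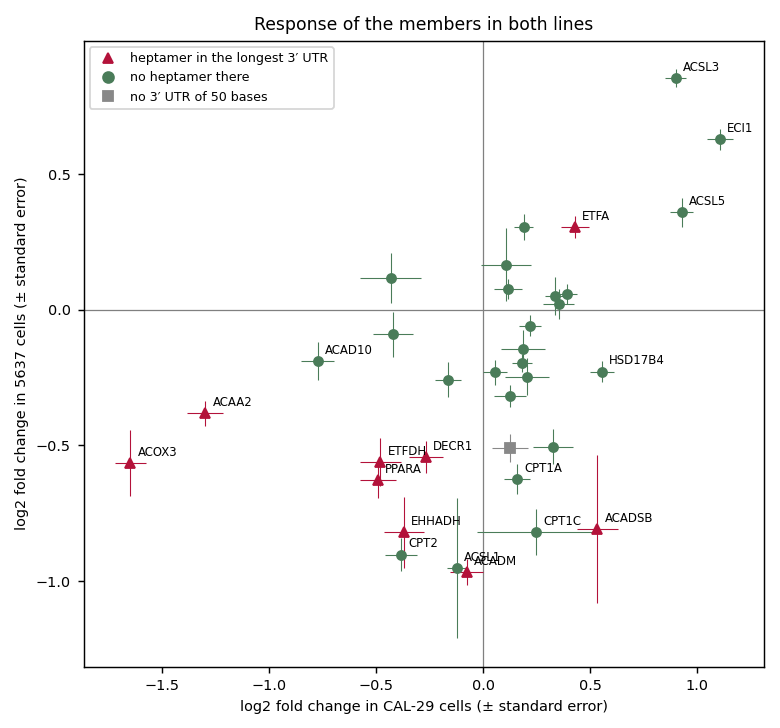
Log2 fold change of the 35 genes tested in both lines, CAL-29 cells on the x axis and 5637 cells on the y axis, with standard errors, marked by whether the longest 3′ UTR holds the heptamer (triangles, 9 genes), does not (circles) or is not annotated at 50 bases or more (square). Of the triangles, 7 lie left of 0 and 8 lie below 0, and ETFA lies above 0 on both axes.

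Of the acyl-CoA synthetases, which activate long-chain fatty acids for oxidation and for lipid synthesis alike, ACSL3, ACSL4 and ACSL5 were higher after the knockdown in both lines. ACSL3 had 199.8, 177 and 183 CPM with siCtrl and 353, 352 and 339.6 CPM with siKMT9α in CAL-29 cells. The levels of the 5637 libraries were 163, 169 and 159 CPM and 301, 292 and 295 CPM, so that the groups were far apart in both lines. The log2 fold changes were 0.90 ± 0.05 and 0.85 ± 0.03. For ACSL5, the levels in CAL-29 cells were 118, 111 and 99.4 CPM against 206, 205 and 212 CPM (0.93 ± 0.05), and in 5637 cells 25.8, 25.9 and 26.1 CPM against 33.5, 34.2 and 32.4 CPM (0.36 ± 0.05). ACSL4 changed less, by 0.19 ± 0.05 and 0.31 ± 0.05. ACSL1 went the other way, with 1.87, 1.28 and 1.46 CPM against 0.824, 0.517 and 1.02 CPM in 5637 cells (-0.95 ± 0.26), on as few as 14 counts in a library. In CAL-29 cells, where it was abundant, the libraries had 102, 103 and 101 CPM and 96.5, 95.2 and 89.8 CPM (-0.12 ± 0.05).

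The 4 synthetases together held 560.0, 532 and 526 CPM in the siCtrl libraries of CAL-29 cells and 812, 819 and 802 CPM in the siKMT9α libraries. That is a ratio of means of 1.504. In 5637 cells they held 248, 252 and 235 CPM and 402, 391 and 397 CPM, a ratio of 1.62. There ACSL3 alone went from a mean of 164 CPM to 296 CPM, and sums of this kind follow the abundant genes most. The other 32 genes summed to 1278, 1323 and 1322 CPM and 1399, 1421 and 1441 CPM in CAL-29 cells, a ratio of 1.09. In 5637 cells their sum went the other way, from 1432, 1432 and 1473 CPM to 1291, 1315 and 1302 CPM, a ratio of 0.901. The groups did not overlap in any of these sums. The sum over all 36 genes had a ratio of 1.21 in CAL-29, where the groups were apart, and of 1.01 in 5637 cells, where they overlapped.

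**Figure D3:**
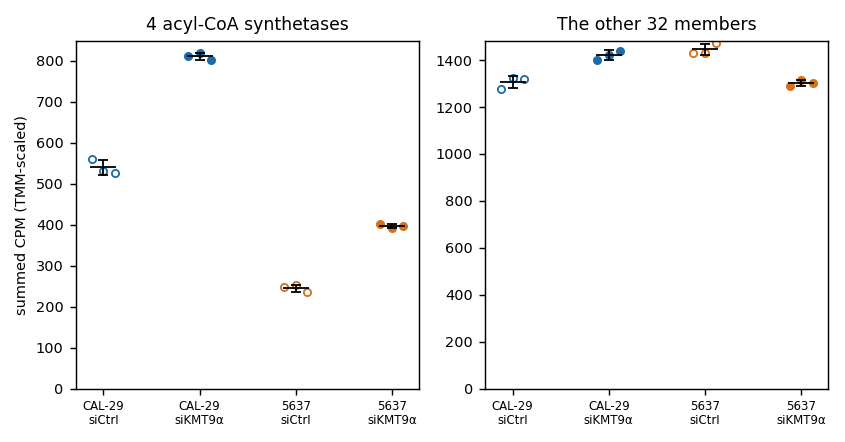
Summed CPM of the 4 acyl-CoA synthetases (left) and of the other 32 members (right) in each library, open points for siCtrl and filled points for siKMT9α, with the mean and SD over 3 libraries as a bar. The sum of the synthetases lies higher in both lines after the knockdown, although ACSL1 alone was lower in both. The sum of the other members lies higher in CAL-29 and lower in 5637 cells. Of these other members, 13 of 32 had a negative fold change in CAL-29 cells, and 8 of 31 tested a positive one in 5637 cells.

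Of the 6 genes of the carnitine shuttle, 3 passed 1e-06 downwards in 5637 cells (CPT1A, CPT1C and CPT2) and CROT passed upwards in CAL-29 cells, against 17.5% and 14.9% of all genes tested. CPT1A, the liver-type and most widely expressed carnitine palmitoyltransferase 1, had 37.2, 38.98 and 35.9 CPM with siCtrl and 24.7, 22.8 and 25.2 CPM with siKMT9α in 5637 cells (-0.62 ± 0.06). In CAL-29 cells its libraries overlapped at 103, 101 and 84.5 CPM and 111, 109 and 102 CPM (0.16 ± 0.06). CPT2, which returns the acyl group to CoA inside the mitochondrion, was lower in both lines, with 33.8, 33.3 and 36.5 CPM against 19.4, 18.9 and 17.2 CPM in 5637 cells (-0.90 ± 0.06) and 28.7, 27.5 and 28.98 CPM against 19.5, 22.2 and 23.6 CPM in CAL-29 cells (-0.38 ± 0.08). For CPT1C, a brain-enriched isoform with little activity in oxidation, the levels in 5637 cells were 17.8, 17.02 and 18.8 CPM and 10.5, 8.75 and 11.2 CPM (-0.82 ± 0.08). In CAL-29 cells it was near the detection limit, at 1.59, 1.99 and 1.096 CPM and 2.11, 2.23 and 1.11 CPM (0.25 ± 0.28). The carnitine acetyltransferase CRAT had 0.21 ± 0.10 in CAL-29 and -0.25 ± 0.07 in 5637 cells. The carnitine-acylcarnitine translocase SLC25A20 had -0.43 ± 0.14 and 0.12 ± 0.09, and the peroxisomal carnitine octanoyltransferase CROT 0.33 ± 0.05 and 0.05 ± 0.07. Among the exons of CPT2, 37.7% of bases overlap annotated exons on the opposite strand, mainly of CZIB, and whether the counting used the strand is not given in the sources used here.

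**Figure D4:**
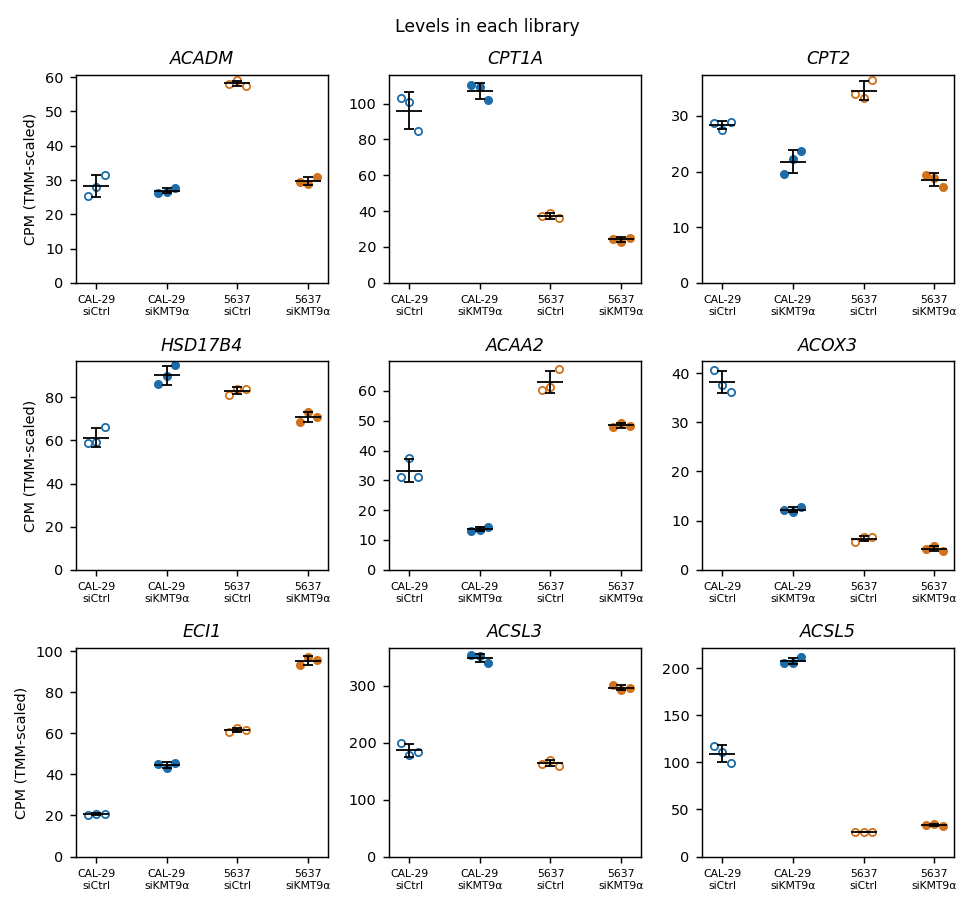
Levels in CPM (y axis, from 0) of 9 genes in each of the 12 libraries, open points for siCtrl and filled points for siKMT9α, with the mean and SD over 3 libraries. ACADM overlaps between the groups in CAL-29 and is lower in every siKMT9α library of 5637 cells, HSD17B4 moves in opposite directions, and ACSL3 and ECI1 are higher in both lines.

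Among the acyl-CoA dehydrogenases other than ACADM, those for short and for very long straight chains did not separate the groups. ACADS, for short chains, had 0.11 ± 0.12 in CAL-29 and 0.17 ± 0.14 in 5637 cells, and ACADVL, for very long chains, 0.12 ± 0.07 and 0.08 ± 0.04, with overlapping groups in both lines for both genes. The long-chain enzyme ACADL was scarce, at 2.81, 3.56 and 3.21 CPM with siCtrl and 1.17, 1.799 and 1.87 CPM with siKMT9α in CAL-29 cells (-0.99 ± 0.22), and it had between 0.5 and 4 counts per library in 5637 cells. ACADSB, which acts on short branched chains in isoleucine breakdown, was higher in CAL-29 cells, at 9.95, 9.73 and 11.3 CPM against 14.2, 16.04 and 14.6 CPM (0.53 ± 0.10). In 5637 cells it was lower, at 1.44, 1.16 and 1.26 CPM against 0.487, 0.628 and 1.05 CPM (-0.81 ± 0.27), with as few as 13 counts in a library. ACAD9, an assembly factor of respiratory complex I, had 0.06 ± 0.05 and -0.23 ± 0.05. ACAD10 had 31.8, 29.2 and 27.1 CPM against 17.99, 16.5 and 17.1 CPM in CAL-29 cells (-0.77 ± 0.08) and 19.3, 17.9 and 19.999 CPM against 17.9, 16.5 and 15.9 CPM in 5637 cells (-0.19 ± 0.07). Its groups were apart in CAL-29 cells, where the shift was larger. In 5637 cells they all but touched, at 17.916 CPM in the lowest siCtrl and 17.909 CPM in the highest siKMT9α library. ACAD11 had -0.42 ± 0.09 and -0.09 ± 0.08, with 93.6% of its exon bases shared with another annotated gene, so its counts cannot be assigned to it alone.

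Among the enzymes from hydration to thiolysis, the thiolase ACAA2 (chr18:47308534-47340323, minus strand) stood apart from its neighbours in the pathway. In CAL-29 cells it had 31.2, 37.6 and 30.9 CPM with siCtrl and 12.9, 13.5 and 14.2 CPM with siKMT9α (-1.298 ± 0.08), and in 5637 cells 60.5, 61.4 and 67.2 CPM and 47.8, 49.2 and 48.2 CPM (-0.38 ± 0.05). The difference in response between the lines was -0.90 ± 0.10. The other members of this group ranged from 0.13 to 0.39 on the log2 scale in CAL-29 cells, and from -0.32 to 0.06 in the other line. HADHA and HADHB encode the subunits of the mitochondrial trifunctional protein, which needs both. HADHA had 0.18 ± 0.05 in CAL-29 and -0.20 ± 0.03 in 5637 cells, and HADHB 0.39 ± 0.05 and 0.06 ± 0.04, so HADHB was the more positive in both lines. The 3-hydroxyacyl-CoA dehydrogenase HADH, the hydratase ECHS1 and the acetoacetyl-CoA thiolase ACAT1 had 0.13 ± 0.07, 0.22 ± 0.05 and 0.35 ± 0.07 in CAL-29 cells. In 5637 cells they had -0.32 ± 0.04, -0.06 ± 0.04 and 0.02 ± 0.06.

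HADHA and HADHB are transcribed away from each other from start sites 307 bases apart in RefSeq (GRCh38.p14), a build other than that of the counts. The RefSeq promoter window of HADHB, 250 bases before to 50 bases after its start, is shown because both genes share it, with the 194 bases that also lie in the window of HADHA in capitals (chr2:26244689-26244988, plus strand).
HADHB: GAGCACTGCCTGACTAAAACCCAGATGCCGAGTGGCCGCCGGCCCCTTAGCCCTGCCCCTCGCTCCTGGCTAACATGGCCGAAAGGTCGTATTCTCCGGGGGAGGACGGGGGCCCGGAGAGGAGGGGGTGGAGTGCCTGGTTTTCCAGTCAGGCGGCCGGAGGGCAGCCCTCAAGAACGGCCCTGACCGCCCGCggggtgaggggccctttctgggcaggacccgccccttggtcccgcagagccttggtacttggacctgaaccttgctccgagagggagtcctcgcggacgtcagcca
RefSeq promoters were found for 29 of the 36 members, 43 windows in all, with a median GC content of 67.0% against 58.7% over 35116 windows. The ETS core CCGGAAG, on either strand, was in 7 of the 43 windows (16.3%, against 10.3% of all windows), among them those of ECI1, ACAD10 and CPT2. The half-site AGGTCA of nuclear receptors was in 2 (4.65%, against 13.8%), of ACAD10 and ACSL5, and the E-box CACGTG in 1 (2.33%, against 7.26%), of ACAD9. No member window held the direct repeat of that half-site that PPARs bind, which 0.0228% of all windows held. At so low a share, finding none in 43 windows tells nothing about PPAR sites at these genes. Only the exact letters were searched, in windows of 300 bases.

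The auxiliary enzymes handle unsaturated fatty acids, in which the isomerases shift double bonds at odd positions and the dienoyl-CoA reductases are needed for those at even positions. ECI1 (chr16:2289403-2302301, minus strand), an enoyl-CoA isomerase, had the largest increase of all members in CAL-29 cells, from 20.02, 20.9 and 20.9 CPM with siCtrl to 45.2, 42.9 and 45.3 CPM with siKMT9α (1.11 ± 0.06). In 5637 cells it rose as well, from 60.8, 62.7 and 61.5 CPM to 93.2, 97.4 and 95.7 CPM (0.63 ± 0.04). The second isomerase, ECI2, had 0.33 ± 0.09 in CAL-29 and -0.50 ± 0.06 in 5637 cells, a difference between the lines of 0.85 ± 0.11. The reductases DECR1 and DECR2 had -0.27 ± 0.08 and 0.19 ± 0.10 in CAL-29 and -0.54 ± 0.06 and -0.15 ± 0.07 in 5637 cells. Of the exon bases of DECR2, 30.9% overlap NME4 on the same strand, and of those of ECI2, 24.2% overlap exons on the opposite strand.

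The subunits of the electron transfer flavoprotein did not move together. ETFA had 0.43 ± 0.06 in CAL-29 and 0.31 ± 0.04 in 5637 cells, whereas its partner ETFB had 0.13 ± 0.08 and -0.51 ± 0.05. ETFDH, the oxidoreductase that passes the electrons on to ubiquinone, was lower in both lines, with -0.48 ± 0.10 and -0.56 ± 0.09. In 5637 cells all 3 passed 1e-06, ETFA upwards, and ETFB and ETFDH downwards, with ETFDH close to the limit. Of all genes tested in that line, 17.9% passed upwards and 17.5% downwards. Of the exon bases of ETFB, 38.6% overlap another annotated gene on the same strand and 24.8% one on the opposite strand, so its counts may not be its own alone.

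ACOX3 (chr4:8368009-8442450, minus strand), a peroxisomal oxidase of branched acyl-CoA, had the largest decrease of any member. In CAL-29 cells it went from 40.5, 37.6 and 36.2 CPM with siCtrl to 12.1, 11.7 and 12.8 CPM with siKMT9α (-1.65 ± 0.07), and in 5637 cells, where it was scarcer, from 5.702, 6.61 and 6.56 CPM to 4.196, 4.87 and 3.74 CPM (-0.56 ± 0.12). HSD17B4, the peroxisomal D-bifunctional protein, moved in opposite directions. It had 58.6, 59.2 and 66.2 CPM against 86.1, 89.97 and 94.8 CPM in CAL-29 cells (0.56 ± 0.06) and 81.2, 84.1 and 83.9 CPM against 68.6, 73.3 and 70.8 CPM in 5637 cells (-0.23 ± 0.04). The groups were apart in both lines, and only the rise in CAL-29 cells passed 1e-06. EHHADH, the L-bifunctional protein, had 14.2, 16.7 and 16.2 CPM against 11.3, 12.9 and 12.3 CPM in CAL-29 cells (-0.37 ± 0.09) and 5.18, 6.52 and 5.53 CPM against 3.297, 3.36 and 3.09 CPM in 5637 cells (-0.82 ± 0.13). It no longer passed 1e-06 in 5637 cells when any 1 of the 6 libraries was left out. The peroxisomal thiolase ACAA1 had -0.16 ± 0.06 and -0.26 ± 0.06, with 24.0% of its exon bases overlapping DLEC1 on the opposite strand. PPARA, the gene of PPARα, was lower in both lines, with -0.49 ± 0.08 in CAL-29 and -0.63 ± 0.07 in 5637 cells, and passed 1e-06 in the latter.

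The difference in response between the lines exceeded 1.5-fold, with edgeR's glmTreat at a Benjamini-Hochberg adjusted p below 0.05, for 7 of the 36 genes, where 10.8% of 15411 genes tested did so. The response was the more positive in CAL-29 cells for ACADM, ACADSB, CPT1A, ECI2 and HSD17B4, and the more negative there for ACAA2 and ACOX3. With DESeq2 at the same limits 3 genes remained past them, 1 more positive and 2 more negative in CAL-29 cells. The medium, the transfection reagent and the siRNA concentration differed between the lines in the study's methods, so they cannot be told apart from the line.

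The control libraries of the lines were compared next. This contrast is not the one by which the genes were chosen, but it uses the same siCtrl libraries, so a control level of a member enters both. With edgeR's quasi-likelihood test in a model of all 12 libraries, 12 of the 36 genes were higher in CAL-29 cells at p below 1e-06. Higher in 5637 cells were 14, where 29.1% and 30.8% of all 15411 genes tested passed in these directions. The 12 include ACADL, which entered the model only through CAL-29 cells, so its place among them is not a test. The median log2 difference of the members was -0.01, against 0.01 over all genes. Of the 4 synthetases, 3 were higher in CAL-29 cells past 1e-06, and of the 6 enzymes from hydration to thiolysis 4 were higher in 5637 cells. ACSL1 had the largest difference, with 99.2, 101 and 98.3 CPM in CAL-29 and 1.91, 1.31 and 1.49 CPM in 5637 cells, a log2 difference of 5.98 ± 0.09 (edgeR adjusted p = 6.29e-30).

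CROT was at 104, 110.4 and 111 CPM in CAL-29 and 23.7, 20.5 and 21.4 CPM in 5637 cells (2.31 ± 0.06, edgeR adjusted p = 1.58e-24). For ACOX3 the levels were 39.3, 36.7 and 35.3 CPM and 5.83, 6.74 and 6.69 CPM (2.53 ± 0.09, edgeR adjusted p = 2.42e-21), and for ACADSB 9.66, 9.48 and 10.97 CPM and 1.47, 1.18 and 1.29 CPM (2.93 ± 0.15, edgeR adjusted p = 6.65e-17). ACADL, at 2.73, 3.46 and 3.13 CPM against 0.0941, 0.0654 and 0.114 CPM, was close to 0 in 5637 cells and entered the model only through CAL-29 cells, so no fold change or test is given for it. These 4 genes all had their higher levels in CAL-29 cells. CPT1C was the gene with the largest difference in favour of 5637 cells, at 1.54, 1.94 and 1.07 CPM in CAL-29 and 18.2, 17.3 and 19.2 CPM in 5637 cells (-3.59 ± 0.16, edgeR adjusted p = 2.44e-18). ECI1 (-1.65 ± 0.05, edgeR adjusted p = 2.13e-22), ETFB (-1.502 ± 0.07, edgeR adjusted p = 3.48e-18) and HADH (-1.32 ± 0.06, edgeR adjusted p = 3.72e-18) were also higher in 5637 cells. ACAD9, SLC25A20, HADHB, ECHS1 and PPARA did not pass an adjusted p of 0.05, with log2 differences between -0.14 and 0.04.

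Per length, as CPM per kilobase of the annotated canonical transcript, the most abundant members in the control libraries were enzymes of the mitochondrial spiral. In CAL-29 cells these were ECHS1 at 71.9, HADHA at 55.2 and ACADVL at 49.9 CPM per kilobase. In 5637 cells the same 3 genes led, with HADHA at 80.7, ACADVL at 74.9 and ECHS1 at 69.1 CPM per kilobase. ACADM was at 12.5 and 25.7 CPM per kilobase. At the low end were CPT1C (0.548) and ACADL (1.27) in CAL-29 cells, and ACADL (0.0356) and ACADSB (0.21995 CPM per kilobase) in 5637 cells.

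**Figure D5:**
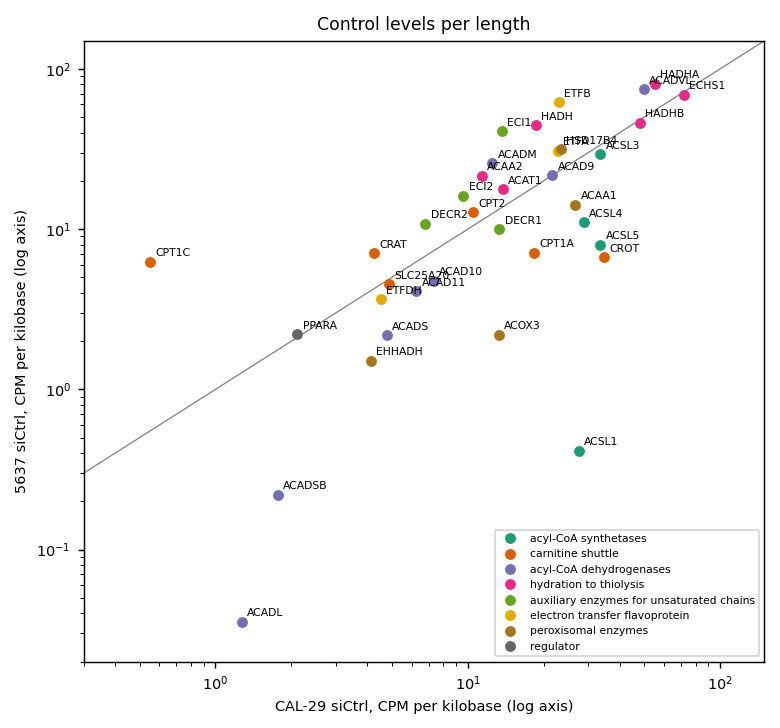
Mean level of the 36 genes in the 3 siCtrl libraries of CAL-29 cells (x axis) and of 5637 cells (y axis), in CPM per kilobase on log axes, coloured by role, with the line of equal levels. ACSL1, ACADL, ACADSB, ACOX3 and CROT lie below the line, CPT1C far above it, and HADHA, ACADVL and ECHS1 are at the top right.

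Of 100 further genes around the pathway, none of them a member, 87 were tested in CAL-29 and 86 in 5637 cells. At p below 1e-06 with edgeR's quasi-likelihood test, CAL-29 cells had 15 upregulated and 7 downregulated genes of 87, 5637 cells 15 and 13 of 86. Over all genes tested the shares were 14.9% and 15.0% in the first line, 17.9% and 17.5% in the second. Scaled by total counts, the split in 5637 cells was 13 and 17. In both lines 16 genes passed in the same direction, 12 upwards and 4 downwards, and 1 in opposite directions. For these counts too the share of all genes is not given. The median log2 fold change of all the further genes tested was 0.15 in CAL-29 and -0.06 in 5637 cells.

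Among the genes downregulated in both lines, ABCD3, a transporter of fatty acids into peroxisomes, had -0.71 ± 0.06 in CAL-29 and -1.09 ± 0.05 in 5637 cells, and the peroxin PEX2 had -1.05 ± 0.08 and -0.98 ± 0.07. Among the peroxisomal enzymes that are not members, 2 of 14 tested passed downwards in CAL-29 and 5 of 13 in 5637 cells, and none upwards in either, where 15.0% and 17.5% of all genes passed downwards. PHYH, which starts the breakdown of branched phytanic acid, had -0.71 ± 0.12 in CAL-29 (edgeR adjusted p = 2.85e-05) and -0.97 ± 0.11 in 5637 cells (edgeR adjusted p = 8.40e-09). NUDT7 and PECR had the largest changes of that list in CAL-29 cells, -1.49 ± 0.35 and 0.73 ± 0.25, both on low counts. ABCD3, PEX2 and PHYH hold the heptamer ACATTCA in their longest 3′ UTR. ACOX2 was not tested, with at most a few counts in any library. The import receptor PEX5 rose by 0.44 ± 0.05 and 0.44 ± 0.05, and PEX11G had -0.91 ± 0.31 and -0.58 ± 0.14.

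Of 13 regulators of the pathway tested, 4 passed upwards and 1 downwards for CAL-29, 5 and 1 for 5637, where 14.9% and 15.0%, and 17.9% and 17.5%, of all genes did. These shares were not tested against each other. RXRA, the partner of PPARα in its heterodimer, rose by 1.04 ± 0.05 in CAL-29 and 0.73 ± 0.04 in 5637 cells. The coactivator PPARGC1B rose by 1.22 ± 0.11 and 0.44 ± 0.06, the orphan receptor ESRRA by 0.52 ± 0.05 and 0.62 ± 0.04, and PRKAA1, a catalytic subunit of AMPK, by 0.77 ± 0.05 and 0.27 ± 0.04. ACACB, whose product makes the malonyl-CoA that inhibits carnitine palmitoyltransferase 1, had -0.95 ± 0.12 and -1.11 ± 0.21, and passed 1e-06 in CAL-29 cells. PRKAA2, the other catalytic subunit of AMPK, had -0.76 ± 0.13 and -0.86 ± 0.37.

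Among known targets of PPARs, PLIN2 rose in both lines (0.59 ± 0.06 and 0.39 ± 0.04), whereas PDK4, which restrains glucose oxidation, fell in 5637 cells from 3.62, 3.21 and 3.28 CPM to 0.375, 0.295 and 0.492 CPM (-3.09 ± 0.23). In CAL-29 cells PDK4 had -0.73 ± 0.22 (edgeR adjusted p = 0.0065). ANGPTL4 had 0.49 ± 0.28 and -1.505 ± 0.36, and VNN1 1.76 ± 0.56 and 0.31 ± 0.11, all below 10 CPM. So 1 of 6 tested targets passed upwards in each line and 1 downwards in 5637 cells. Of all genes tested, 14.9% passed upwards in CAL-29 cells, and 17.9% upwards and 17.5% downwards in 5637 cells.

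Of the genes of uptake and activation, 10 were tested in each line, of which CAL-29 cells had 3 that rose with 1 that fell, 5637 cells 1 of each. Over all genes tested, 14.9% passed upwards and 15.0% downwards in CAL-29 cells, 17.9% and 17.5% in 5637 cells. The transporter SLC27A4 rose in both lines, by 0.50 ± 0.06 and 0.56 ± 0.04. ACSF2, an acyl-CoA synthetase, was the gene that went in opposite directions, with 59.04, 57.5 and 53.9 against 74.7, 75.1 and 72.5 CPM in CAL-29 cells (0.38 ± 0.05) and 41.3, 42.96 and 42.8 against 28.2, 29.4 and 28.7 CPM in 5637 cells (-0.56 ± 0.05). SLC27A2 had 1.03 ± 0.08 and 0.07 ± 0.06. SLC27A6 fell in CAL-29 cells (-3.27 ± 0.42) and FABP4 had -1.104 ± 0.35 in 5637 cells, both at less than 2 CPM.

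Of the other mitochondrial enzymes, 13 were tested, of which CAL-29 cells had 1 in each direction, 5637 cells 1 upwards with 2 downwards. The shares of all genes were 14.9% upwards and 15.0% downwards in CAL-29 cells, 17.9% and 17.5% in 5637 cells. The folate and FAD carrier SLC25A32 rose by 0.57 ± 0.06 and 0.59 ± 0.05. MLYCD, which degrades malonyl-CoA, fell in 5637 cells (-0.82 ± 0.12), where the value in CAL-29 cells was -0.18 ± 0.10. PCCA and MCEE of the propionate pathway had 0.75 ± 0.13 and 0.74 ± 0.17 in CAL-29 and 0.02 ± 0.07 and -0.19 ± 0.15 in 5637 cells. Of 3 further acyl-CoA dehydrogenases, IVD of leucine breakdown rose in both lines (0.49 ± 0.05 and 0.57 ± 0.04), and GCDH had 0.56 ± 0.12 and -0.41 ± 0.07. In the carnitine list of 5 tested genes, ALDH9A1 rose in 5637 cells (0.25 ± 0.04, against 0.38 ± 0.08 in CAL-29 cells) and no other passed. CPT1B, the muscle isoform, had -0.54 ± 0.11 and -0.08 ± 0.08, and TMLHE -0.17 ± 0.12 and -0.36 ± 0.10.

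OXCT1, which activates ketone bodies for oxidation, rose by 0.96 ± 0.06 in CAL-29 and 0.70 ± 0.04 in 5637 cells. BDH1, the 3-hydroxybutyrate dehydrogenase, had 0.69 ± 0.12 and 0.26 ± 0.08. ECSIT and TMEM126B, which work with ACAD9 in the assembly of complex I, rose in both lines, ECSIT by 1.21 ± 0.11 and 1.41 ± 0.05 and TMEM126B by 0.81 ± 0.08 and 0.50 ± 0.06, where ACAD9 itself had 0.06 ± 0.05 and -0.23 ± 0.05. The remaining pair of that list, NDUFAF1 and TIMMDC1, passed in neither line.

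Of the 36 members, 20 had more than 1 transcript in the tables, and the row with the most counts was the same transcript in both lines for all 36. CPT1A had -0.63 on its main transcript (NM_001876) and -0.65 on the shorter one (NM_001031847) in 5637 cells (standard errors 0.06 and 0.07), and CROT had 0.33 on its main transcript (NM_001143935) and 0.53 on a scarcer one (NM_001243745) in CAL-29 cells.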

How the data were processed

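RNAseq libraries of CAL-29 and 5637 cells were assigned to their groups from the sample labels. The siRNA is called si270 in the tables and siKMT9α#1 in the study's results, and no label links these names. Replicate numbers follow the sample titles, from which the descriptions deviate. Alignment by the authors used STAR on hg19, and counting used Homer with its defaults. What they deposited are estimated counts for 37400 RefSeq transcripts, not normalized and in steps of 0.5. Tools and build are also named in the submitters' processing notes. 37.3% of values are not whole. The authors' own p-values and log2 fold changes in the same tables were not used, and 0 columns of per-sample values were left unmapped.

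For each symbol the transcript with the most counts in a line was kept and rounded to whole numbers. edgeR 4.0.16 (R 4.3.3) was run with TMM, filterByExpr and the quasi-likelihood test on all genes of each line, and on all 12 libraries for the control comparison and the difference between lines (glmTreat, 1.5-fold). A gene was called at p below 1e-06, the threshold of the study. Adjusted p-values are Benjamini-Hochberg over all genes tested. Standard errors are the log2 fold change over the square root of F. The tests were checked on simulated counts. An exact permutation test of 3 against 3 libraries cannot go below 0.1. The spread among replicates exceeded sampling noise in every group (chi-square per degree of freedom 2.25 to 12.3), and each library was counted as 1 replicate.

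The members, the lists of other genes and the tests were chosen with earlier results of these data known. Values in every library were given for ACADM, the 8 members with the largest absolute log2 fold change in each line, members past 1e-06 in opposite directions, and the 6 with the largest control difference. CPT1A, HSD17B4 and other genes shown in the same way were added after their values were seen. Of the other lists, genes past 1e-06 in the same direction in both lines, the 2 largest changes per list and line, and CPT1B and ACOX2 were named, and some genes that this rule selects are not reported here. Gene positions and 3′ UTRs are from GENCODE on GRCh37, promoters from RefSeq on GRCh38.p14. Alternatives were other filters, scalings, DESeq2 1.42.0, the replicate number as a block, each library left out, other transcript rows and a fold threshold. Python 3.11.15, numpy 2.4.6, pandas 2.3.3 and matplotlib 3.10.9 were used.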

Additional observations from a re-analysis of the deposited data

Results flagged for a closer look

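Groups of 3 libraries were too small for a test of single outlying values. What drew attention were 14 genes, 7 members and 7 others, whose response to the knockdown differed between CAL-29 and 5637 cells by more than 1.5-fold in edgeR's glmTreat at an adjusted p below 0.05. These were 7 of 36 members and 7 of 90 other genes tested, where 10.8% of all 15411 genes tested did so. The list of members was selected with one such difference known, so their values are a description. On the log2 scale, as the response in CAL-29 cells minus that in 5637 cells with its standard error, the difference was 0.91 ± 0.09 for ACADM, 1.36 ± 0.27 for ACADSB, 0.80 ± 0.09 for CPT1A, 0.85 ± 0.11 for ECI2 and 0.80 ± 0.07 for HSD17B4. It was -0.90 ± 0.10 for ACAA2 and -1.07 ± 0.14 for ACOX3. ACADSB had few counts in 5637 cells. With DESeq2, 3 members were past the same limits in place of 7, 1 of them positive and 2 negative.

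Of the other genes, the difference was 0.97 ± 0.10 for SLC27A2, 0.96 ± 0.07 for ACSF2, 0.99 ± 0.13 for GCDH, 1.16 ± 0.10 for catalase (CAT), 0.77 ± 0.07 for PPARG, 2.38 ± 0.33 for PDK4 and 2.01 ± 0.46 for ANGPTL4. All 7 were positive, where 889 of the 1657 genes past these limits over all genes tested were positive. The line, its medium, reagent and siRNA concentration cannot be told apart in these values.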

How the results depend on the processing

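Single values were followed through the alternatives for 15 of the 36 members, each in the comparisons for which it was named, and none that had passed an adjusted p of 0.05 changed direction. Also requiring a 2-fold change left 3 of 9 members in CAL-29 cells, 0 of 17 in 5637 cells (largest decrease -0.97) and 15 of 26 in the control comparison, and 6 of 22 and 3 of 28 of the other genes in CAL-29 and 5637 cells. Without a filter, 35 of the other genes passed in CAL-29 cells. With DESeq2, 3 members in place of 7 differed between the lines, 1 higher and 2 lower against 5 and 2. With single libraries left out, between 7 and 11 members passed in CAL-29 cells, between 11 and 14 in 5637 cells (11 without the third siKMT9α library), between 24 and 27 in the control comparison and between 5 and 8 in the difference between lines. For the other genes it was 17 to 27 in CAL-29 and 24 to 28 in 5637 cells. Scaling by total counts shifted the median of all genes in the difference between lines from 0.04 to 0.16 on the log2 scale, and 8 members then passed.

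Same-numbered siCtrl and siKMT9α libraries correlated in their deviations by -9.49e-05 to 0.182, and not every library correlated best with its own number, so the numbers were not taken as pairing. With the replicate block, 13 members passed in CAL-29 cells, 16 in 5637 cells, 24 in the control comparison and 8 in the difference between lines. Of the other genes, 35 passed in CAL-29 and 30 in 5637 cells with the block.

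Depth limits ACADL, ACADSB and ACSL1 in 5637 cells and CPT1C in CAL-29 cells, where single libraries held few counts. The counts of the control comparison include ACADL, which entered it only through CAL-29 cells.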
